A study of Mus musculus with 9 samples.

Results

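The circRNAs of solute carrier genes were 40 of the 5281 circRNAs counted in PP, DP and N of the mouse cortex, and came from 37 genes. They were chosen by name, as all circRNAs whose parental gene has a symbol of the Slc series, without the 3 circRNAs of Slc8a1. The parental gene was named by the study's own sheet for 11 of them and, for the other 29, was the GENCODE vM1 gene on the same strand that holds the coordinates in mm9. A parental gene could be given to 5215 of the 5281 circRNAs. In the study, cells of the lateral cortex of E14.5 C57BL/6 embryos were sorted by a pair of reporters carried in all groups, Btg2-RFP and Tubb3-GFP. PP (proliferative progenitors) lacked both colours, DP (differentiative progenitors) were RFP-positive and GFP-negative, and N (newborn neurons) were GFP-positive, with 3 libraries each. Total RNA of every group was treated with RNase R, an exonuclease that degrades linear RNA, before library preparation. PP were thus defined by the absence of both colours, so that any other cell without them could enter the gate.

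Solute carriers are membrane proteins that move ions, amino acids, sugars, nucleosides and other small molecules across the plasma membrane or into organelles. In the developing cortex, cation-chloride cotransporters set the chloride gradient of progenitors and neurons, and maturing neurons acquire carriers that package transmitters and that extrude calcium. A circRNA forms when the end of an exon is spliced back to the start of the same or an upstream exon, and its level need not follow that of the linear mRNA of its gene. The linear mRNA of the carriers is not analysed here, and the counts cover every read on the exons of a circle, not its junction alone.

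The sequences of 4 circRNAs are given because the comparison of progenitors with N turned on them. Slc8a2 and Slc45a1 had the smallest adjusted p among circRNAs higher in N, Slc22a23 was the one called lower in N, and Slc17a6, added after its values were seen, had no count in PP. All were read from the mm9 genome along the exons of GENCODE vM1, 5′ to 3′ on the strand of the gene. The circle of Slc8a2 (chr7:16738168-16738643, plus strand) joined exons 7 and 8 and had 225 bases, that of Slc17a6 (chr7:58900375-58901644, plus strand) joined exons 4 and 5 and had 203 bases, and that of Slc22a23 (chr13:34390866-34397130, minus strand) joined exons 2 and 3 and had 259 bases. In these whole circles the capitals mark the first 15 and the last 15 bases, which meet at the backsplice junction.
Slc8a2: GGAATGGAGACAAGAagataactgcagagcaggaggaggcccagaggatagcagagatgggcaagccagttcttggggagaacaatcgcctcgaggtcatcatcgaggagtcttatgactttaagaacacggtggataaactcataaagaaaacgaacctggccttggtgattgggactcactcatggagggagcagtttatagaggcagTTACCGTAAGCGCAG
Slc17a6: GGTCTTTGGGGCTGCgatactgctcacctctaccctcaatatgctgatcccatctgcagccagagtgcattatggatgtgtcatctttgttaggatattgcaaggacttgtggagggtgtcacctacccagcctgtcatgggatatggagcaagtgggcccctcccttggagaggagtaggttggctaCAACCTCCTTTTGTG
Slc22a23: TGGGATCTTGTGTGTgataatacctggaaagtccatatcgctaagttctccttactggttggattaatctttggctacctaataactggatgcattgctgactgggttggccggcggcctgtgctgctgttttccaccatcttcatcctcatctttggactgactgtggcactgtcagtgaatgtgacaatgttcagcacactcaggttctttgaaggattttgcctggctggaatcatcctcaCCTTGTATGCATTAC
For Slc45a1 (chr4:150016555-150018477, minus strand, exons 2 to 4, 739 bases) the junction alone is shown, with the last 15 bases of the circle in lower case and the first 15 in capitals.
Slc45a1: atgccctcatggcggTGACACCCACCAGCC
The circles of Slc8a2, Slc17a6 and Slc22a23 were entirely coding, whereas that of Slc45a1 started in exon 2 and also held bases upstream of the coding sequence, with 715 of 739 bases coding.

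All 40 circles had both ends at exon ends of a single annotated transcript, and none held the first or last exon. They had a median of 3 exons, between 1 and 8, as did all circRNAs with exon ends (median 3). Their median counted length was 440.5 bases against 467 for all circRNAs of the table. Exon 2 was the first exon of 15 of the 40 circles (37.5%), against 27.5% of all circRNAs with exon ends, and the annotated start codon lay in 9 (22.5%) against 14.1%. Of the 30 circles that were coding throughout, 14 had a length divisible by 3 (46.7%), against 38.7% of all such circRNAs. The transcripts of carrier genes had a median of 12 exons against 17. The median upstream intron was 8601 bases against 7186 and the median downstream intron 3794 bases against 5409. The sites AG before and GT after the circle were present on the strand of the gene in 39 of 40, the exception being Slc9a7. One circle, that of Slc35e2, overlapped an exon of an annotated gene on the opposite strand, Gm16023. These features are descriptions without a test, and those of all circRNAs include the carriers.

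**Figure D1:**
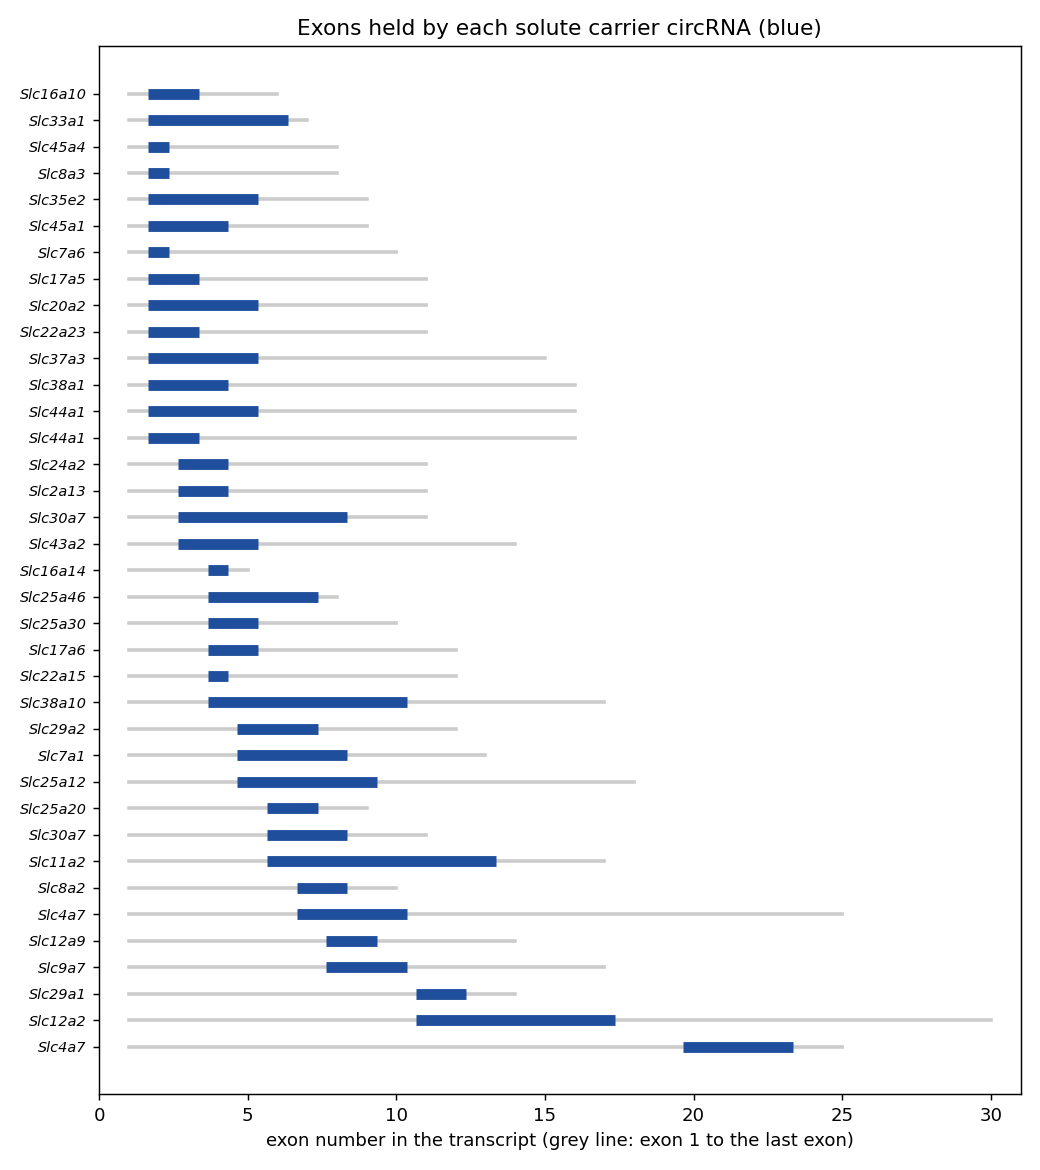
Position of 37 of the 40 circRNAs in their transcripts, with 1 row per circRNA and the exon number on the x axis. The exons of the circle are marked among those of the transcript, and 14 of those drawn start at exon 2 while none includes the first or last exon.

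The libraries held 2962787 to 3959379 counts in PP, 6569620 to 8015311 in DP and 5772646 to 6759985 in N, but a few very high entries took most of them and left between 83572 and 287983 counts for all other circRNAs. The carriers had between 198 and 881 counts per library, so that 32 of the 40 never exceeded 35 counts in any library and 3 counts were worth 0.339 CPM in the deepest and 1.39 CPM in the shallowest library (CPM being the counts of a circRNA relative to the effective size of its library). PP replicate 3 and N replicate 1 had the smallest effective library sizes, and their CPM values are the least precise. The cell types were checked by circRNAs of marker genes. Of the 18 circRNAs from 6 of 18 genes of radial glia, 16 were lower in N than in progenitors, and their summed level was between 366 and 491 CPM in PP, 154 and 189 CPM in DP and 65.1 and 84.9 CPM in N. Of the 17 circRNAs from 5 of 15 neuronal genes, 16 were higher in N, with sums of 11.0 to 23.7 CPM in PP, 104 to 151 CPM in DP and 372 to 529 CPM in N. The 4 circRNAs from 3 of 9 genes of neurogenic progenitors summed to 18.2 to 44.6 CPM in PP, 57.4 to 64.4 CPM in DP and 15.2 to 21.3 CPM in N. No circRNA came from the 11 genes of endothelium and mural cells or the 8 of microglia and blood that were looked up. Among 10 genes of interneurons and Cajal-Retzius cells, Erbb4 and Reln gave 4 circRNAs, whose sum was at most 2.32 CPM in progenitors and between 9.35 and 13.1 CPM in N, and Reln was called higher in N. As these are bulk samples, fewer cells of a type and less RNA per cell cannot be told apart.

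The median carrier circRNA was below the median circRNA of the table. Per length, its level was 3.76 RPKM (CPM per kilobase of counted length) against 6.76 RPKM for all circRNAs. The highest levels per length, as means over the 3 cell types, were those of Slc38a1 with 26.8 RPKM, Slc8a2 with 24.8 RPKM, Slc38a10 with 13.6 RPKM, Slc22a23 with 8.14 RPKM and Slc17a6 with 8.04 RPKM. Slc38a1, a sodium-coupled carrier of glutamine and other neutral amino acids, stood above 93.9% of all circRNAs on that scale and had similar levels in the 3 cell types. It had 32, 73 and 20 counts in PP, 96, 95 and 86 in DP and 27, 105 and 73 in N. This corresponded to 9.79 ± 1.79 CPM (SD, n = 3) in PP, 11.1 ± 0.551 CPM in DP and 12.04 ± 0.138 CPM in N. Although each N library lay above each progenitor library, the gap was small (log2 FC 0.20 ± 0.24 SE, adjusted p = 0.578 in edgeR's quasi-likelihood test, N against progenitors). At the other end, Slc24a2 and Slc22a15 had at most 4 and 3 counts in any library.

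**Figure D2:**
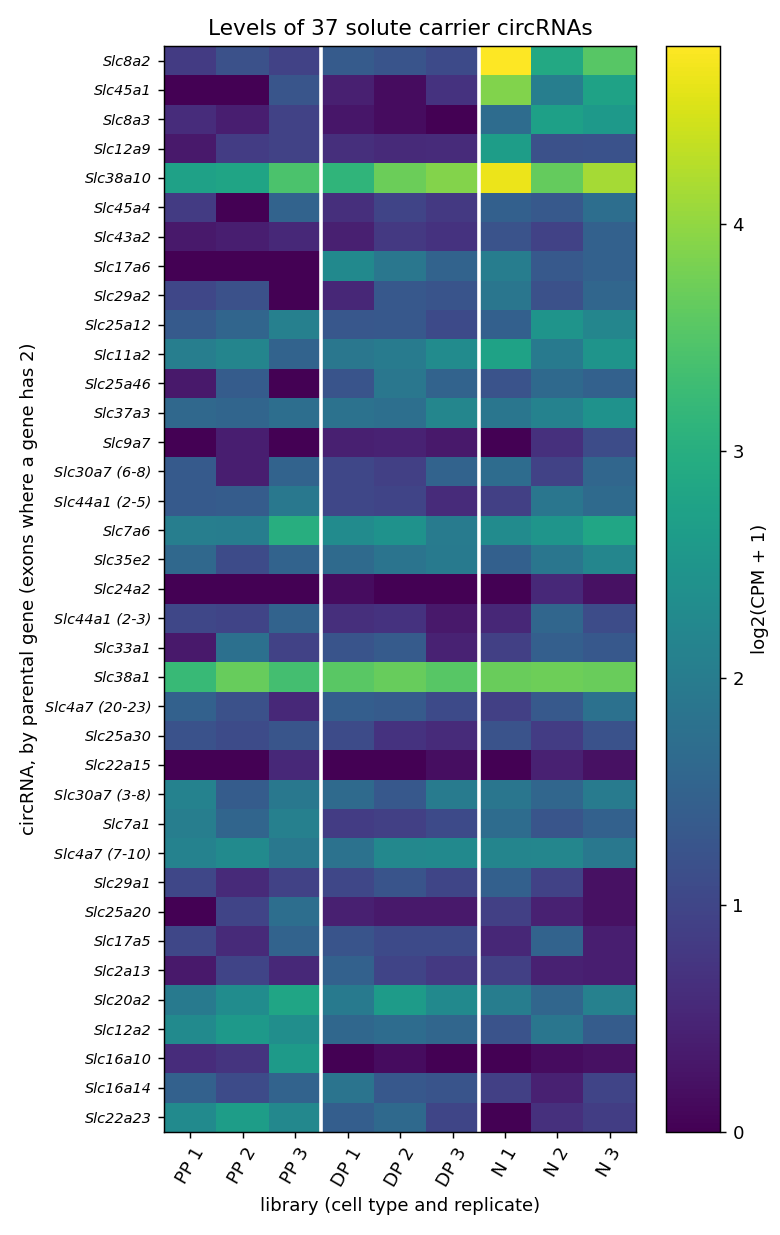
Level of 37 of the 40 carrier circRNAs in each of the 9 libraries, with 1 row per circRNA, 1 column per library and colour as log2(CPM + 1). Slc38a1 and Slc38a10 are high throughout, Slc8a2, Slc45a1 and Slc8a3 are high in the 3 N libraries, and Slc17a6 is at 0 in the 3 PP libraries.

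The question was which carriers are those of progenitors and which those of neurons. By mean CPM, 22 of the 40 carriers were highest in N, 10 in PP and 8 in DP, where 37.7%, 42.2% and 20.2% of all circRNAs were highest in these cell types, without a test. N was compared with the mean of PP and DP for the 25 members with enough counts, in the same fit as 4406 circRNAs of the table. Of the 25, 7 were higher in N (among them Slc8a2, Slc45a1, Slc17a6, Slc25a12 and Slc38a10) and 1 was lower (Slc22a23) at an adjusted p under 0.05. This is 32.0% of those tested, near the 28.1% called among all tested circRNAs, where 14.3% were higher and 13.8% lower. The log2 FC was positive in 20 of the 25 members (80.0%) and in 47.8% of all tested circRNAs, with medians of 0.42 and -0.05. With libraries scaled by their total counts, the median of all circRNAs moved to -0.36 and that of the members to 0.06, with 14 of 25 positive. The other 15 members had too few counts for a test, so that these figures do not describe all 40. Of the calls, the highest adjusted p was that of Slc38a10 (0.0308), and the lowest among members that missed the threshold was that of Slc16a14 (0.0693). Without PP replicate 3 and N replicate 1, 31 members had enough counts and 14 were called, 12 higher and 2 lower in N, among them all 8 above. In that fit 2013 of all 4714 tested circRNAs were called (42.7%), so that the share rose alike for members (45.2%) and all circRNAs.

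**Figure D3:**
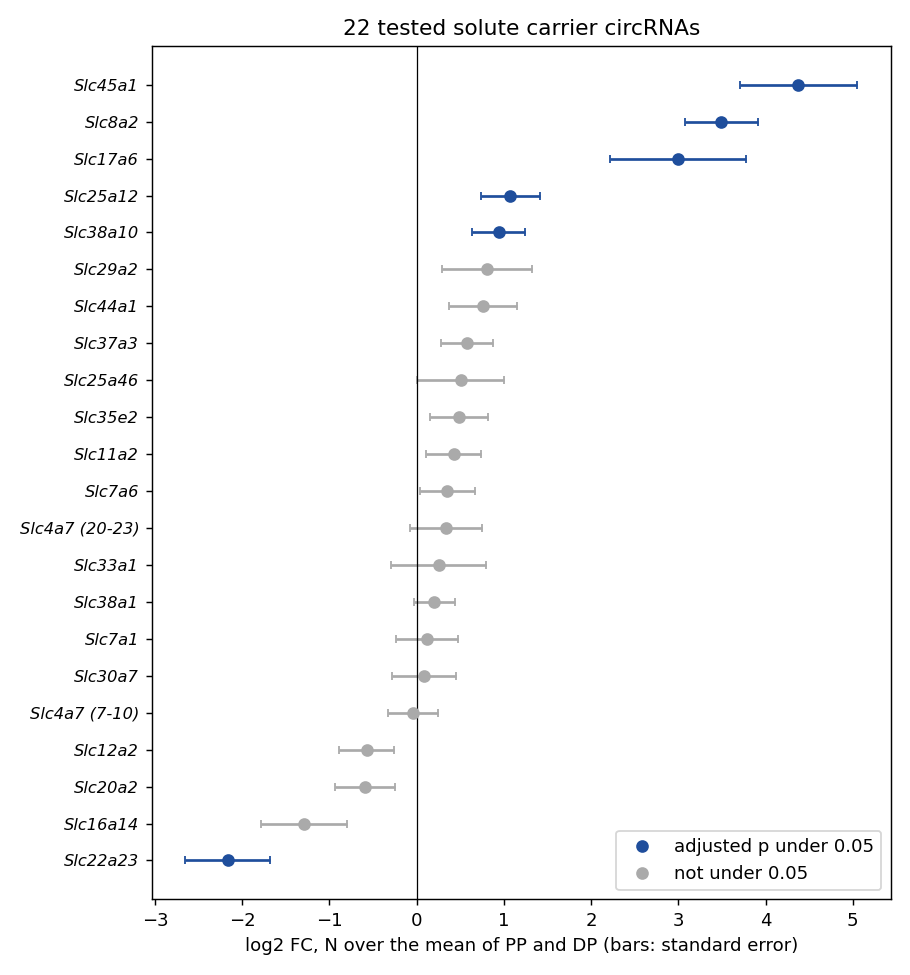
Log2 FC of N against progenitors for 22 of the 25 tested carrier circRNAs, with bars of 1 SE on the x axis and 1 row per circRNA. Among those drawn, the 5 carriers called higher in N and the 1 called lower are marked by colour, and 17 of the 22 points lie to the right of 0.

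Against each progenitor type alone, 5 members were higher and 0 lower in N than in DP (5 of 25, with 18.8% of all tested circRNAs called, 9.03% higher and 9.80% lower), and 5 were higher and 2 lower in N than in PP (28.0%, with 28.1% of all called, 13.7% higher and 14.4% lower). The higher members included Slc8a2, Slc45a1 and Slc25a12 against DP, and Slc8a2, Slc45a1, Slc17a6 and Slc38a10 against PP, where Slc22a23 and Slc12a2 were lower. In DP against PP, 1 member was called, Slc17a6, higher in DP (4.0%, with 1.86% of all called, 1.48% higher and 0.386% lower). Since these contrasts share libraries, their calls are not independent. The lowest adjusted p among the other members in DP against PP was 0.0936 (Slc7a1). Single libraries moved these counts. In N against DP, 9 members were called without PP replicate 3, and 3 without DP replicate 2 or without N replicate 2, and in DP against PP 2 were called without PP replicate 3. The calls over all circRNAs moved with them, to 1239 of 4693, 554 of 4618 and 668 of 4581 in N against DP (830 of 4406 with all libraries), and to 183 of 4693 in DP against PP.

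Slc8a2, a plasma membrane exchanger of sodium for calcium found in brain, had the smallest adjusted p of all members. Its circRNA had 3, 8 and 2 counts in PP, 14, 11 and 9 in DP and 60, 55 and 65 in N. These were 0.778, 1.29 and 0.929 CPM in PP, 1.58, 1.36 and 1.12 CPM in DP and 26.6, 6.39 and 10.7 CPM in N, so that N lay apart from the progenitor libraries, while PP and DP overlapped. The level was 11.3-fold higher in N than in progenitors (log2 FC 3.50 ± 0.42 SE, adjusted p = 2.66e-05). It was also higher than in DP (3.31 ± 0.49, adjusted p = 0.000275) and than in PP (3.68 ± 0.57, adjusted p = 0.00024), while DP and PP differed by 0.37 ± 0.65 (adjusted p = 0.899). The raw counts of the 3 N libraries were alike, and the high CPM of N replicate 1 came with its small effective library size. Without N replicate 1 the log2 FC was 2.81 against progenitors (adjusted p = 3.36e-05), 2.62 against DP (adjusted p = 0.000237) and 2.996 against PP (adjusted p = 0.000172). The N libraries, where it was high, were needed for Slc8a2 to pass the filter on low counts. Without that filter its log2 FC against progenitors was 3.46 (adjusted p = 1.26e-05).

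A related gene had a like pattern at lower depth. Slc8a3, which encodes another sodium-calcium exchanger, gave a single-exon circle of exon 2 with 1845 bases. Its counts were 2, 2 and 2 in PP, 2, 1 and 0 in DP and 5, 48 and 30 in N, and its CPM in N were 2.21, 5.58 and 4.92 against at most 0.929 in any progenitor library. It did not pass the filter on low counts, and without that filter its log2 FC was 4.07 ± 0.47 (adjusted p = 1.21e-05, edgeR). The circRNAs of Slc8a1, the remaining gene of this family in the table, were not part of the set. No read is counted in common by Slc8a2 and Slc8a3, which lie on chromosomes 7 and 12.

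Slc17a6, which loads glutamate into synaptic vesicles, was the carrier that separated DP from PP. It had 0 counts in each PP library, 34, 22 and 15 counts in DP and 7, 13 and 11 in N. It thus passed the filter on low counts through DP and N alone. Its mean was 2.81 ± 0.996 CPM (SD, n = 3) in DP and 2.14 ± 0.844 CPM in N. Taking 3 counts per library as the limit of a count of 0 in PP, it was at least 3.17-fold higher in DP and at least 2.42-fold higher in N, and both calls passed the test (adjusted p = 0.00455 and 0.00149). N did not differ from DP beyond the error (log2 FC -0.55 ± 0.43, adjusted p = 0.461), and the libraries overlapped. The call of N against progenitors (adjusted p = 0.0119) rests on the counts of 0 in PP, and it was lost with total counts as the scaling (adjusted p = 0.0744). The related vesicular carrier Slc17a5, which exports sialic acid from lysosomes, had 1 to 16 counts per library in all cell types and was not tested.

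Slc38a10, a carrier of the same family as Slc38a1, was the most abundant member by CPM, with 11.9 CPM as the mean over cell types. It had 22, 37 and 21 counts in PP, 69, 98 and 112 in DP and 54, 100 and 101 in N, or 7.14 ± 2.26 CPM (SD, n = 3), 11.3 ± 3.13 CPM and 17.4 ± 6.18 CPM. The N libraries, at 23.9, 11.6 and 16.6 CPM, overlapped those of DP, which reached 13.9 CPM. N was above progenitors (log2 FC 0.94 ± 0.30, adjusted p = 0.0308) and above PP (1.29 ± 0.37, adjusted p = 0.0181). The first call is fragile, as it was lost without any single one of PP replicates 1 and 2, DP replicates 1 and 2 and N replicates 1 and 3 (adjusted p between 0.06 and 0.102) and in a fit blocked on replicate number (0.0501). The call against PP was lost without PP replicate 1 (0.0797) or PP replicate 2 (0.0789).

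The other amino acid carriers were not called. Slc7a6, an exchanger of cationic and neutral amino acids, was at 4.38 ± 2.24 CPM (SD, n = 3) in PP, 3.79 ± 0.743 CPM in DP and 4.90 ± 1.07 CPM in N and did not pass the test (log2 FC 0.35, adjusted p = 0.464). Slc7a1, which carries arginine and lysine and is known from the endothelium of the blood-brain barrier, was at 2.77 ± 0.723 CPM in PP, 0.924 ± 0.171 CPM in DP and 1.80 ± 0.409 CPM in N (log2 FC 0.12, adjusted p = 0.841, N against progenitors). Each DP library of Slc7a1 lay below each PP and N library, but neither DP against PP (-1.49 ± 0.42, adjusted p = 0.0936) nor N against DP (0.87 ± 0.43, adjusted p = 0.199) passed the test. Slc43a2, which carries branched-chain and other neutral amino acids, had 1, 2 and 1 counts in PP, 3, 6 and 5 in DP and 3, 8 and 11 in N, and was not tested. In CPM its 3 N libraries lay above all progenitor libraries, and without the filter its log2 FC was 1.56 (adjusted p = 0.0303).

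Slc45a1, a proton-coupled sugar carrier expressed in brain, had most of its counts in N. There were 0, 0 and 3 counts in PP, 3, 1 and 5 in DP and 31, 27 and 35 in N. The CPM in N were 13.7, 3.14 and 5.74, all above the highest progenitor library at 1.39 CPM, which was PP replicate 3 with its 3 counts. With at most 5 counts in any progenitor library, Slc45a1 passed the filter on low counts only through N, where it was high. Without that filter its log2 FC against progenitors was 4.35 (adjusted p = 0.000102). In the main fit the log2 FC against progenitors was 4.38 ± 0.67 (adjusted p = 0.000195), with 4.15 ± 0.75 against DP (adjusted p = 0.00128) and 4.60 ± 0.95 against PP (adjusted p = 0.00224). Without N replicate 1 it was 3.77 against progenitors (adjusted p = 0.000719) and 3.53 against DP (adjusted p = 0.00307). Without PP replicate 3, which held all its counts in PP, it was 6.21 against progenitors (adjusted p = 3.13e-05) and 8.36 against PP (adjusted p = 0.000423), fitted values against a PP at 0 that are no bound. Without PP replicate 2 it was 3.63 against PP (adjusted p = 0.0159). The progenitor counts are at or near the limit of 3 counts, so that the size of the fold depends on few reads. Its relative Slc45a4 had 0 to 14 counts per library and was not tested, and its mean was 0.822 CPM in progenitors and 1.86 ± 0.401 CPM (SD, n = 3) in N.

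**Figure D4:**
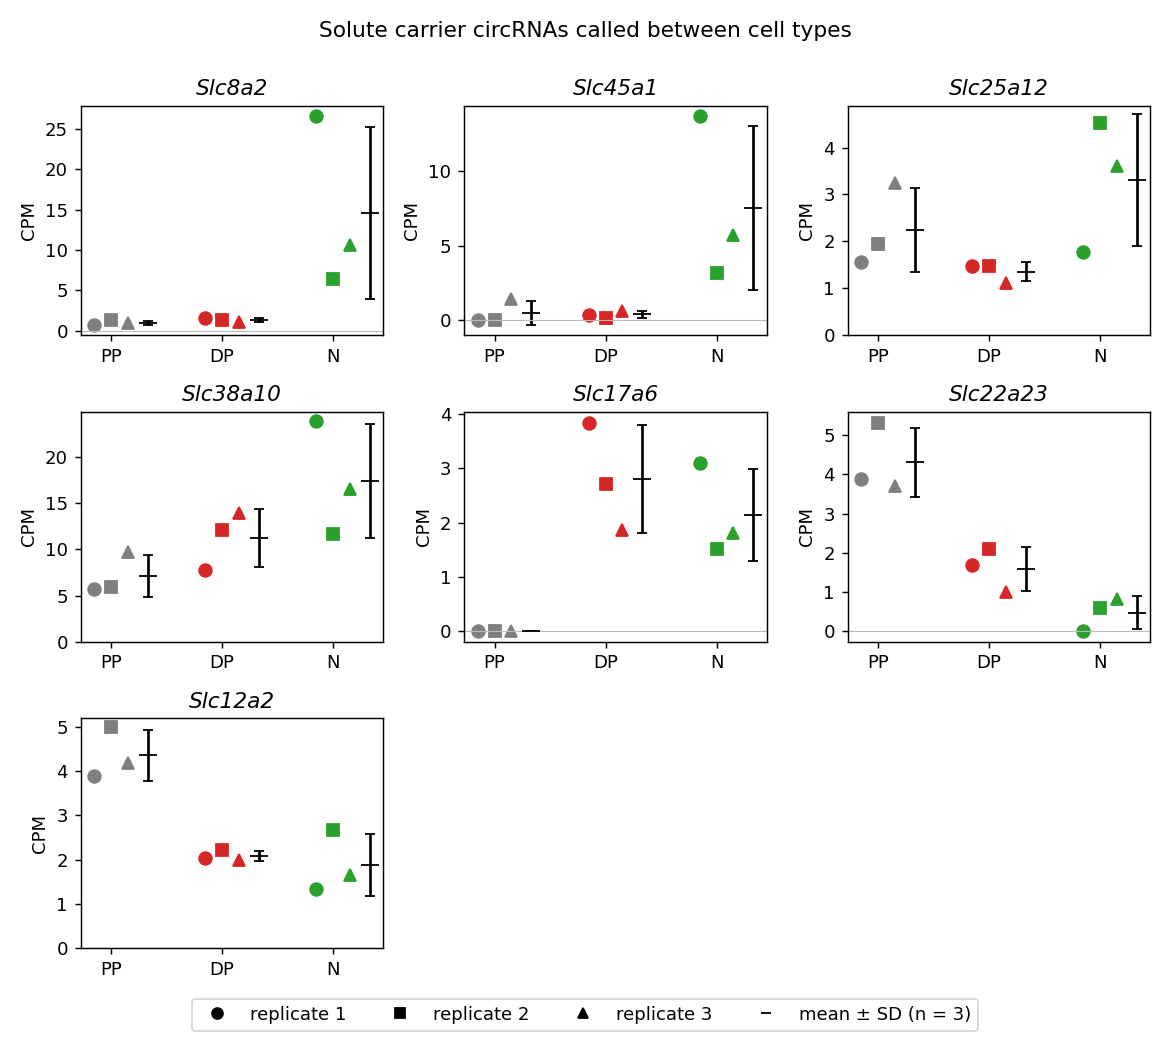
CPM of 7 carrier circRNAs that were called in a contrast, in 1 panel per circRNA, with a point for each library of PP, DP and N and the mean with bars of 1 SD (n = 3). The N libraries of Slc8a2 and Slc45a1 lie above all progenitor libraries, Slc17a6 is at 0 in PP, and the N libraries of Slc22a23 lie below all progenitor libraries.

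Slc25a12, the mitochondrial exchanger of aspartate for glutamate, had 6, 12 and 7 counts in PP, 13, 12 and 9 in DP and 4, 39 and 22 in N. Its mean was 2.25 ± 0.889 CPM (SD, n = 3) in PP, 1.35 ± 0.207 CPM in DP and 3.30 ± 1.41 CPM in N, where N replicate 1 (1.77 CPM) lay within the range of progenitors. It was called against progenitors (1.07 ± 0.34, adjusted p = 0.0294) and against DP (1.39 ± 0.40, adjusted p = 0.0234). Both calls were lost without any single one of DP replicates 1, 2 and 3 and N replicates 2 and 3, and the first also without PP replicate 1 or 2, with adjusted p between 0.0612 and 0.206 for the first and between 0.079 and 0.141 for the second. Both were also lost in a fit blocked on replicate number (0.0801 and 0.0697), and the first in DESeq2 (0.0613).

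Slc22a23 was called lower in N than in progenitors, and Slc12a2 was called lower only in N against PP. Slc22a23, an orphan member of the organic ion transporter family, had 15, 33 and 8 counts in PP, 15, 17 and 8 in DP and 0, 5 and 5 in N. Its mean was 4.31 ± 0.881 CPM (SD, n = 3) in PP, 1.59 ± 0.558 CPM in DP and 0.467 ± 0.422 CPM in N, and every N library lay below every progenitor library. It was 4.48-fold lower in N than in progenitors (log2 FC -2.16 ± 0.49, adjusted p = 0.00364), with -2.90 ± 0.52 against PP (adjusted p = 0.000795). The steps on either side of DP did not pass the test, with -1.43 ± 0.55 for N against DP (adjusted p = 0.0893) and -1.46 ± 0.42 for DP against PP (adjusted p = 0.104). Its direction was the one of the circRNAs of radial glia genes, of which 16 of 18 were lower in N, and the part of radial glia in it was not tested.

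Slc12a2, the cotransporter that brings sodium, potassium and chloride into cells and is known from radial glia, had 15, 31 and 9 counts in PP, 18, 18 and 16 in DP and 3, 23 and 10 in N. Its level was 4.36 ± 0.575 CPM (SD, n = 3) in PP, 2.08 ± 0.122 CPM in DP and 1.88 ± 0.704 CPM in N, and the PP libraries lay above all others. It was lower in N than in PP (log2 FC -1.11 ± 0.36, adjusted p = 0.0328), and that call was lost without any single one of PP replicates 1 and 2, DP replicates 1 to 3 and N replicates 1 and 3 (adjusted p between 0.0505 and 0.139), with the replicate block (0.0525) and in DESeq2 (0.0729). Against both progenitor types together it did not pass the test (-0.57 ± 0.32, adjusted p = 0.213), and neither did DP against PP (-1.08 ± 0.34, adjusted p = 0.16). Slc16a14, an orphan of the monocarboxylate carrier family with a single-exon circle, had 7, 7 and 4 counts in PP, 23, 12 and 11 in DP and 2, 3 and 6 in N. All its N libraries lay below the progenitor libraries in CPM, but the adjusted p was 0.0693 (log2 FC -1.29 ± 0.50). Slc16a10, a carrier of aromatic amino acids, had 2, 4 and 11 counts in PP and 0 or 1 in every library of DP and N, and most of them were in PP replicate 3. It was not tested, and without the filter it was lower in N than in PP (-3.52 ± 1.12, adjusted p = 0.0279).

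Over all 40 carriers, 7 had N libraries that all lay above the progenitor libraries in CPM (among them Slc12a9, Slc38a1, Slc43a2, Slc45a1, Slc8a2 and Slc8a3), and 2 had N libraries that all lay below (Slc16a14 and Slc22a23). Of all 5281 circRNAs, 12.1% were of the first kind and 13.0% of the second. Slc12a9, a relative of the cation-chloride cotransporters, had 1, 5 and 2 counts in PP, 5, 4 and 4 in DP and 12, 11 and 8 in N, and without the filter its log2 FC was 1.78 ± 0.54 (adjusted p = 0.0212). With Slc8a3 and Slc43a2 it made 3 of the 15 untested members that were called in N against progenitors when the filter was left out. In that fit 11 of all 40 members (27.5%) and 27.2% of all 5281 circRNAs were called. The share among all circRNAs that failed the filter was not computed.

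By the kind of cargo, members of 6 of the 8 classes were called. Each count below stands beside 14.3% of all tested circRNAs called higher and 13.8% called lower in N, and with so few members a class none can be read as particular to its class. Of 6 circRNAs of amino acid carriers, 5 were tested and 2 were higher in N than in progenitors (median log2 FC 0.35, against -0.05 over all tested circRNAs). Of 11 circRNAs of ion and bicarbonate carriers, 7 were tested and 2 were higher, Slc8a2 among them (median 0.33). Of 4 circRNAs of sugar carriers, 2 were tested and Slc45a1 was higher. Slc37a3, a member of the sugar phosphate exchanger family, was not called (log2 FC 0.58, adjusted p = 0.184). Of 4 mitochondrial carriers 2 were tested and Slc25a12 was higher, and Slc25a46, a protein of the outer mitochondrial membrane, was not (0.50, adjusted p = 0.51). Of the 3 circRNAs of metal ion carriers (1 of Slc11a2, the importer of iron and other metals, and 2 of Slc30a7, which moves zinc into the Golgi) 2 were tested and none was called. The same held for the 3 of nucleotide sugar and nucleoside carriers (Slc29a1, Slc29a2 and Slc35e2), of which 2 were tested. Of 2 vesicular carriers 1 was tested and higher, Slc17a6. Of 7 circRNAs of other carriers 4 were tested and Slc22a23 was lower. That class had the one negative median, -0.52.

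By the cell type a carrier is known from, 29 genes known from neurons gave 9 circRNAs, of which 6 were tested and 4 were higher in N than in progenitors (Slc8a2 and Slc17a6 among them), with 0 lower, where 14.3% of all tested circRNAs were higher and 13.8% lower. The list was made with results of these data known. Slc38a1 was tested and not called. Slc8a3, Slc9a7 and Slc24a2 were not tested. Slc9a7, a sodium-proton exchanger of the trans-Golgi network, had at most 7 counts in a library. Slc24a2, a potassium-dependent sodium-calcium exchanger, had 4 of its 6 counts in N replicate 2. The 12 genes known from radial glia and astrocytes, among them the glutamate carriers Slc1a2 and Slc1a3, gave 1 circRNA, that of Slc12a2. The 19 genes known from the endothelium of the blood-brain barrier gave 2, those of Slc7a1 and Slc29a1, neither called. The nucleoside carrier Slc29a1 had 1 to 11 counts per library and was not tested.

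Genes with 2 circRNAs allowed circles of 1 gene to be compared. The circles of Slc4a7, a sodium bicarbonate cotransporter, lay in exons 7 to 10 and in exons 20 to 23 and share no exon. The first was at 3.34 ± 0.543 CPM (SD, n = 3) in PP, 3.34 ± 0.744 CPM in DP and 3.31 ± 0.452 CPM in N, and the second at 1.19 ± 0.681, 1.47 ± 0.311 and 1.62 ± 0.794 CPM. Neither differed between N and progenitors (log2 FC -0.04 ± 0.29 and 0.33 ± 0.41, adjusted p = 0.938 and 0.606). The circles of Slc30a7 (exons 3 to 8 and 6 to 8) and of Slc44a1, a choline carrier (exons 2 to 5 and 2 to 3), lie one within the other, so that reads on the shared exons may have been counted for both and their values are not independent. The larger circle of Slc30a7 was not called (0.08 ± 0.36, adjusted p = 0.896). The larger circle of Slc44a1 was at 1.99 ± 0.694 CPM in PP, 0.833 ± 0.292 CPM in DP and 1.90 ± 0.917 CPM in N, and N against DP missed the threshold (1.32 ± 0.46, adjusted p = 0.0613).

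The remaining members were not called in any contrast. Slc20a2, a sodium-phosphate cotransporter, was lower in N by value alone, with 2.79 ± 0.707 CPM (SD, n = 3) in N and 4.15 CPM in progenitors (log2 FC -0.59 ± 0.34, adjusted p = 0.238). Slc11a2 was at 3.03 CPM in progenitors and 4.42 ± 1.43 CPM in N (0.42, adjusted p = 0.371). Slc29a2, Slc33a1 and Slc35e2 had log2 FCs of 0.81, 0.25 and 0.49 with adjusted p between 0.282 and 0.775. The others, Slc2a13, Slc22a15, Slc25a20 and Slc25a30, were not tested, and had at most 16, 3, 6 and 10 counts in a library.

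The summed level of the 40 circRNAs was 64.3, 71.3 and 91.9 CPM in PP, 71.1, 79.5 and 77.4 CPM in DP and 153.1, 102.4 and 119.8 CPM in N. The N libraries lay above those of progenitors, which overlapped with each other. The means were 75.8 ± 14.4 CPM (SD, n = 3) in PP, 76.0 ± 4.40 CPM in DP and 125 ± 25.8 CPM in N, a ratio of N to progenitors of 1.65, given without a test because the members were chosen with results known. The ratio was 1.46 without N replicate 1. Scaled by the counts outside the very high entries, the ratio was 1.45, with an SD of 0.0737 over the 3 N libraries. When libraries were scaled by total counts it was 1.23, with an SD of 0.524 over the 3 N libraries. On that scale N replicate 1 lay below every progenitor library, so that N no longer lay apart from progenitors.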

How the data were processed

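The authors sorted PP, DP and N from the E14.5 cortex in 3 biological replicates, treated total RNA with RNase R, sequenced stranded libraries, predicted circRNAs in mm9 and counted reads on their expressed features with featureCounts (Subread 1.6.0 per the labels). The deposited values are raw counts per circRNA and library, not normalized by the authors. Their methods left introns out of later steps, and the counted length of all 40 members was that of their exons plus 1 base per exon, so no intron is in it. How reads shared by overlapping circles were counted is not given in the sources used here.

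From these counts, CPM on TMM effective library sizes and log2 FCs were computed with edgeR 4.0.16 in R 4.3.3 (filterByExpr, 1 quasi-likelihood fit over 9 libraries without a block, Benjamini-Hochberg over 4406 circRNAs, threshold 0.05). The common biological coefficient of variation was 0.296, and a floor of 3 counts covers counting error only. Replicates are those of the labels, which do not say whether equal numbers share embryos. Deviations of same-numbered libraries correlated at -0.0329 on average (lowest -0.238), so the numbers were not taken as pairs. Genes and exons came from GENCODE vM1, not necessarily the authors' annotation. Tables and plots were made with Python 3.11.15, pandas 2.3.3, numpy 2.4.6 and matplotlib 3.10.9, and the steps were tested on simulated data.

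Some members that enter the fits, counts and sums are not reported here by name. Members, gene lists and markers were chosen with earlier results of these data known. Members named are those called in a contrast, the 5 highest by CPM and by RPKM, those at the threshold, those of genes with 3 or more circRNAs (none), and those on the lists of neurons, radial glia and endothelium. Others, among them members of genes with 2 circRNAs, untested members and those given by a single value, were named after their values were seen. Sequences were to be those of 3 called members per direction with the smallest adjusted p. The alternatives were DESeq2 1.42.0, RLE or total counts, the very high entries left out, other filters on low counts (none, or a minimum of 10 per library), a replicate block, single libraries left out, a test against an FC of 1.5, 1 circRNA per gene and fits of 2 cell types alone. A fit without PP replicate 3 and N replicate 1 together was chosen after seeing the data.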

Additional observations from a re-analysis of the deposited data

How the results depend on the processing

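No call of a member reversed under any alternative. Of 370 values of the 21 called pairs of a member and a contrast, 313 kept their call, 57 lost it, and 12 pairs kept it in all fits in which they passed the filter, among them those of Slc8a2, Slc45a1 and Slc22a23 and those of Slc17a6 in N against PP and DP against PP. Numbers of called members are given for N against progenitors, N against DP, N against PP and DP against PP, in that order (8, 5, 7 and 1). With total counts 4 and 2 of 25 were called in N against progenitors and N against DP (16.0% and 8.0%). Of all 4406 circRNAs 14.2% and 9.24% were called. Slc17a6, Slc25a12 and Slc38a10, among others, lost the call against progenitors. The summed ratio was 1.23 on that scale and 1.45 with scaling by the counts outside the very high entries. With total counts the median log2 FC of members in N against DP was -0.07, with -0.37 over all circRNAs. With a minimum of 10 counts per library, where 2 members remained to be tested, 1, 0, 1 and 0 were called. Of all 1262 circRNAs tested there, 21.2%, 10.6%, 22.3% and 0.951% were called. A test against an FC of 1.5 left 3 in N against DP, and fits of 2 cell types alone left 4 in N against PP and 0 in DP against PP, where Slc17a6 had too few counts to be tested. Without PP replicate 3 and N replicate 1 together, 14, 10, 12 and 6 of 31 members and 2013, 1600, 1988 and 659 of all 4714 circRNAs were called (1240, 830, 1236 and 82 of 4406 with all libraries), with Slc22a23, Slc38a10, Slc12a2 and Slc7a1 among those joining Slc17a6 in DP against PP. Leaving out single libraries gave 6 to 11, 3 to 9, 6 to 10 and 1 to 2 calls, and a summed ratio of 1.46 to 1.80. In N against DP, 9 were called without PP replicate 3, and 3 without DP replicate 2 or without N replicate 2. DP against PP had 2 calls without PP replicate 3. With the replicate number as a block, which does not pair the samples, 6, 4, 6 and 1 of 25 were called (24.0%, 16.0%, 24.0% and 4.0%). Of all 4406 circRNAs 24.4%, 15.8%, 24.1% and 1.09% were called with that block. The cause of these changes was not tested, except that fewer circRNAs or libraries entered the stricter filter and the smaller fits. Depth limits all of these, since 2 of the 40 members had at least 10 counts in every library and 28 had at least 1.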
